A study of Mus musculus with 2 samples.

Results

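The genes described here are the core of the transforming growth factor beta (TGF-beta) and bone morphogenetic protein (BMP) signaling system, 45 of the 55536 genes annotated in the tables. They were chosen by symbol, and all 45 matched the annotation: secreted ligands, the proteins that hold TGF-beta latent, receptors and co-receptors, the SMAD proteins, extracellular binders and antagonists, a pseudoreceptor and the ID transcription regulators. RNA sequencing of total RNA measured them in 2 hearts of female mice, aged 4 days, of the strain labelled B6CASTF1/J, an F1 hybrid of C57BL/6J and CAST/EiJ. Each stranded library was depleted of ribosomal RNA, began with 300 ng of RNA and held ERCC spike-ins, which are synthetic RNAs of known amount. The mice carried no treatment or engineered allele in the labels, and the libraries form a single group, so levels and differences between the hearts can be described but no conditions compared. Both libraries carry the same donor label but different biological replicate numbers and sample records. They were treated as separate animals, and the spread between them may be partly technical.

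Ligands of this family bring together type I and type II receptor kinases on the cell surface. The type II receptor phosphorylates the type I receptor, which in turn phosphorylates receptor SMADs, SMAD2 and SMAD3 for TGF-beta and activin and SMAD1, SMAD5 and SMAD9 for BMPs. These join SMAD4 and enter the nucleus, while SMAD6 and SMAD7 restrain the receptors. In the heart the pathway is known for forming the valve cushions, for trabecular growth under BMP10, and for extracellular matrix production by fibroblasts.

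The depth was 36175363 expected counts in replicate 1 and 32509660 in replicate 2. Of 10 cardiomyocyte markers, all 10 were expressed, with summed levels of 32500 and 32610 TPM (the abundance unit of the tables, corrected for transcript length and library size). The libraries stood apart in blood and skeletal muscle RNA: erythroid markers summed to 17280 TPM in replicate 1 and 221.2 in replicate 2, and skeletal muscle markers to 45.21 and 7.3. Of the other marker lists, all 5 endocardial and all 9 epicardial and mesothelial genes had lower scaled counts in replicate 2, with median log2 ratios of -0.47 and -0.63, and all 8 fibroblast and all 9 macrophage genes had higher ones, with medians of 0.16 and 0.29. In whole tissue, fewer cells of a type and less RNA per cell cannot be told apart. Values below are given for replicate 1 and then replicate 2, with mean ± SD where stated (n = 2).

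Most of the pathway was present in the neonatal heart. A level of at least 1 TPM in both libraries was reached by 39 of the 45 members (86.7%), against 11948 of 22028 protein-coding genes (54.2%), a description that reflects the choice of a well-studied pathway. The median over the expressed members, 12.96 TPM, lay close to the 12.54 of all expressed protein-coding genes. By role, RNA of the binder and latency genes was the most abundant. The extracellular binders and antagonists summed to 216.8 ± 10.3 TPM and the latent TGF-beta binding proteins to 180.8 ± 12.25. Fstl1 alone made up 211.1 TPM of the former sum, and only 2 of the 6 genes in that role were expressed. Type I receptors summed to 96.53 ± 6.088, the ID regulators to 94.4 ± 1.888, co-receptors to 81.75 ± 4.264 and type II receptors to 62.03 ± 1.266. The BMP ligands summed to 51.47 ± 6.293 TPM and the TGF-beta ligands to 39.27 ± 1.909. The plot of levels by role shows every member.

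**Figure D1:**
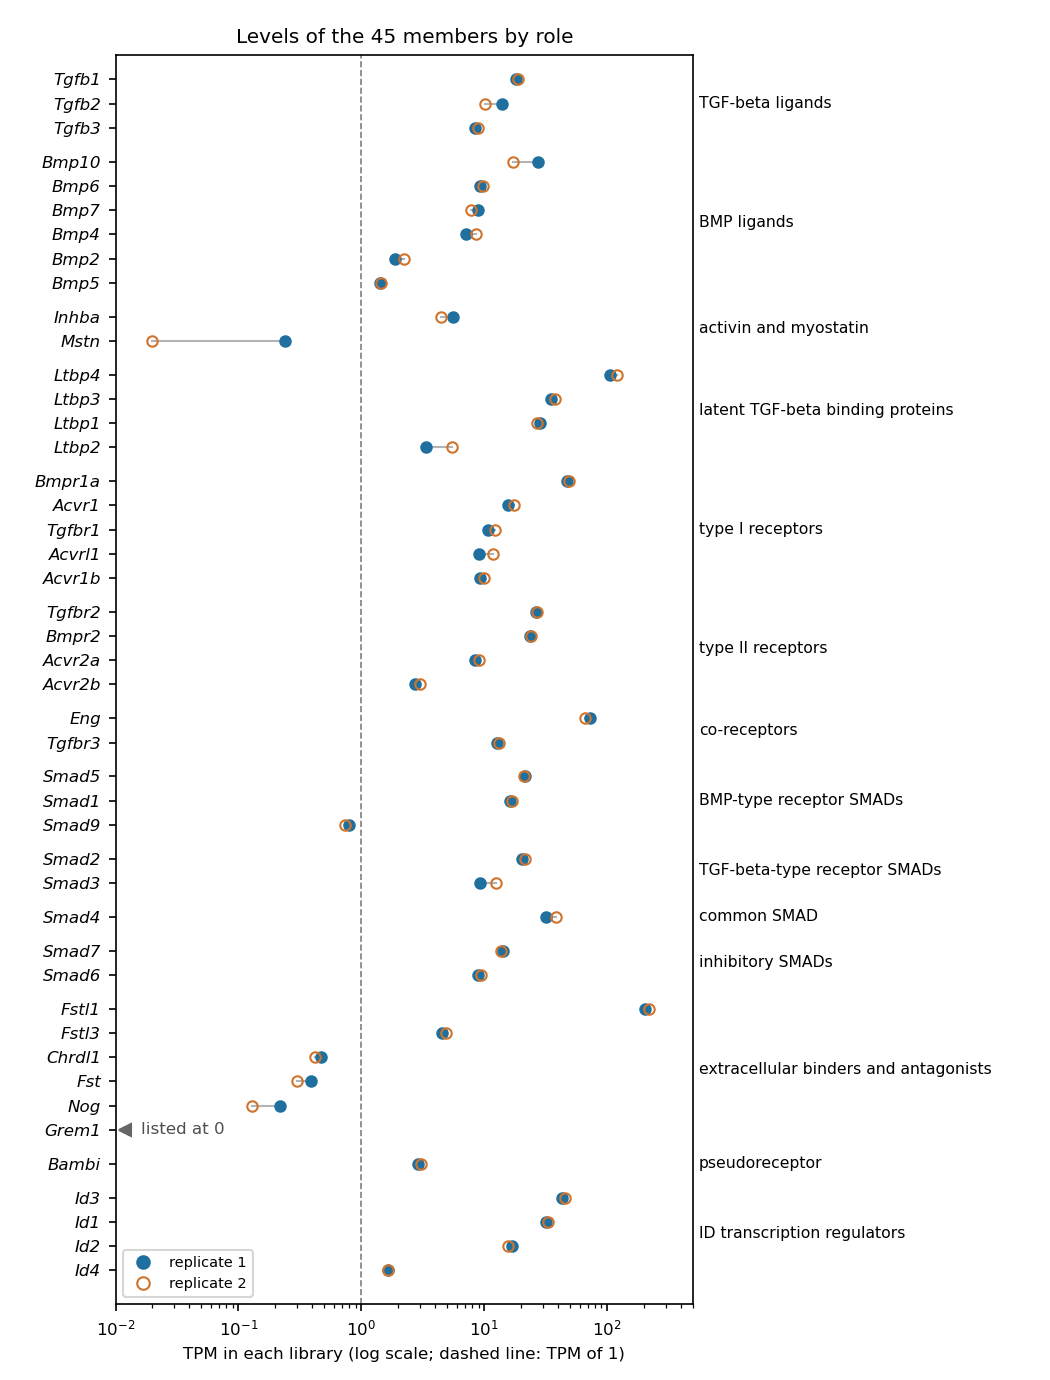
TPM of each of the 45 members in replicate 1 (filled) and replicate 2 (open) on a log axis, grouped by role and ordered by mean within a role. The 39 expressed members lie right of the dashed line at 1 TPM in both libraries, Fstl1 is highest at 203.9 and 218.4, and Grem1 is listed at 0.

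Among the TGF-beta ligands, Tgfb1 was the most abundant, at 18.13 and 18.94 TPM. Tgfb2, which acts in cushion formation, was at 14 and 10.14, and Tgfb3 at 8.49 and 8.84. The order Tgfb1, Tgfb2, Tgfb3 held in gene TPM without overlap between the libraries, although the gap between Tgfb1 and Tgfb2 was narrow in replicate 1. The gap between Tgfb2 and Tgfb3 was narrower still in replicate 2. Without its noncoding transcripts, Tgfb2 lay above Tgfb3 in replicate 1 but below it in replicate 2. The order of Tgfb2 and Tgfb3 is thus not settled for coding transcripts. Over the libraries Tgfb1 exceeded Tgfb2 by 1.56-fold and Tgfb3 by 2.14-fold. Tgfb3 overlaps Ttll5 on the opposite strand, which had 675 and 691 counts, and whether the counting used strand was not stated.

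Bmp10, a ligand of the trabecular and atrial myocardium, was the leading BMP, at 27.35 and 17.23 TPM. It stood above every other BMP ligand in both libraries, 2.3-fold above Bmp6 and 15.2-fold above Bmp5. Bmp6 had 9.19 and 9.69 TPM, Bmp7 had 8.92 and 7.88, and Bmp4, a ligand of outflow tract and cushion formation, had 7.17 and 8.55. Bmp4 and Bmp7 overlapped between the libraries here in gene TPM. In the second set of transcript estimates deposited for the same libraries, Bmp7 (10.83 and 9.741 TPM) was separate from and above Bmp4 (6.145 and 6.05). By coding transcripts alone, Bmp7 lay above Bmp4 without overlap in both sets of estimates. Bmp2, the ligand that patterns the atrioventricular canal, was at 1.88 and 2.23 TPM, and Bmp5 lowest at 1.41 and 1.44. Bmp6 overlaps Txndc5 on the opposite strand, which had 3332 and 3034 counts against 856 for Bmp6 in replicate 1.

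Inhba, which encodes the activin A subunit, was at 5.53 and 4.45 TPM. Mstn, which encodes myostatin, a restraint on skeletal muscle growth, had 16 counts in replicate 1 and 1 in replicate 2 (0.24 and 0.02 TPM). Mstn was therefore under 1 TPM in both hearts, and its difference is given with the muscle markers further on. Both sets of estimates gave all of its TPM to Mstn-202, with 567 coding bases. Mstn-201, with 1128 coding bases, was at 0.0 throughout. Of 22 other ligands of the superfamily, 3 reached 1 TPM in both libraries. Inha, the inhibin alpha subunit, led them at 4.43 and 3.91 TPM, followed by Gdf11 at 1.69 and 2.02 and Gdf15, a stress-induced ligand, at 1.56 and 1.37.

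TGF-beta is secreted bound to its propeptide, and latent TGF-beta binding proteins tether that complex to the matrix. Ltbp4 was the most abundant of them and the second of all members, at 105.6 and 119.4 TPM, a level above 94.6% of expressed protein-coding genes. Ltbp3 was at 34.88 and 37.66, Ltbp1 at 28.29 and 26.93, and Ltbp2, which does not bind latent TGF-beta, at 3.38 and 5.49. The libraries kept these 4 genes apart, with Ltbp4 3.1-fold above Ltbp3 and 26.1-fold above Ltbp2. In the second estimates Ltbp3 and Ltbp1 overlapped.

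Of 15 other genes of latency, processing and activation, 14 were expressed. Fbn1, the fibrillin to which these complexes attach, led at 99.0 and 104.8 TPM. Furin, the protease that cleaves the propeptides, was at 46.22 and 47.85, Emilin1, which restrains that cleavage, at 41.3 and 46.42, and Thbs1, an activator of latent TGF-beta, at 31.6 and 32.94. Ltbp4 thus stood at about the level of Fbn1, and each of these genes differed little between the hearts.

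Type I receptors carry the kinase that signals to SMADs. Bmpr1a, the BMP receptor ALK3, led at 47.44 and 49.27 TPM. Acvr1 (ALK2) followed at 15.64 and 17.53, Tgfbr1 (ALK5) was at 10.83 and 12.24, Acvrl1 (ALK1), the endothelial receptor for BMP9 and BMP10, at 9.1 and 11.9, and Acvr1b (ALK4), the activin receptor, at 9.22 and 9.9. Bmpr1a was 2.92-fold above Acvr1 and 4.2-fold above Tgfbr1 over the libraries, and higher in both. Tgfbr1 and Acvrl1 overlapped, as did Acvrl1 and Acvr1b, so the lower end of this order is not resolved by 2 libraries.

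Type II receptors were led by Tgfbr2, the TGF-beta receptor, at 26.45 and 26.82 TPM, and Bmpr2, the BMP receptor mutated in heritable pulmonary hypertension, at 23.53 and 23.98. The activin receptors were lower, Acvr2a at 8.4 and 9.12 and Acvr2b at 2.76 and 3.01. All 4 were separate in the order given, with SDs of at most 0.5091 TPM. By counts the picture differs, since these are not corrected for length: Bmpr2, with a very long transcript, had 8198 counts in replicate 1, more than the 6273 of Eng, although Eng had the higher TPM. Acvr2a overlaps Orc4 on the opposite strand, which had 781 and 759 counts.

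The co-receptor Eng (endoglin), which presents BMP9 and BMP10 to endothelial receptors, was the third most abundant member, at 71.95 and 65.61 TPM. Tgfbr3 (betaglycan), which presents TGF-beta2, was at 12.81 and 13.12, and Eng was 5.3-fold higher. Tgfbr3 was the 1 member whose count had a posterior SD of at least 1, and it overlaps Gm43422 on the same strand, a feature with 32 and 33 counts, so some of its reads could be shared. Eng overlaps Fpgs on the opposite strand, which had 287 and 252 counts. Of 9 other receptors and co-receptors, 4 were expressed: Hfe2 (hemojuvelin) at 43.02 and 39.95 TPM, Neo1 (neogenin) at 32.06 and 34.35, Rgma at 16.02 and 17.0 and Rgmb at 8.18 and 10.55. Hfe2, Rgma and Rgmb are the 3 BMP co-receptors of the repulsive guidance family, and neogenin is their partner. The type I receptors Acvr1c and Bmpr1b were below 1 TPM, at 0.3 and 0.06 and at 0.31 and 0.09.

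Among the BMP-type receptor SMADs, Smad5 was at 21.64 and 21.16 TPM and Smad1 at 16.28 and 16.75, but Smad9 only at 0.8 and 0.74. Smad5 was 27.8-fold and Smad1 21.5-fold above Smad9, and their separation from it held in both sets of estimates, in which Smad5 and Smad1 themselves overlapped by the second. Of the TGF-beta-type SMADs, Smad2 was at 20.14 and 21.53 and Smad3 at 9.27 and 12.36, so Smad2 was 1.95-fold higher. Smad4, the common partner, was at 31.75 and 38.56 TPM, the highest of the 8 SMADs in both libraries. The 2 inhibitory SMADs were separate, Smad7 at 14.26 and 13.81 and Smad6, which acts mainly on BMP receptors, at 8.93 and 9.5. Of 22 other intracellular regulators, 21 were expressed, led by Fkbp1a, which binds type I receptors, at 200.7 and 194.7 TPM. Ppm1a, a SMAD phosphatase, followed at 93.76 and 99.34.

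The extracellular binders split into 2 that were expressed and 4 that were not. Fstl1, a secreted follistatin-like glycoprotein known as a cardiokine, was the most abundant member at 203.9 and 218.4 TPM, above 97.0% of expressed protein-coding genes. Fstl3, which binds activin and myostatin, was at 4.57 and 4.88, and Fstl1 exceeded it by 44.7-fold. Below 1 TPM stood Chrdl1, a chordin-like BMP antagonist, at 0.47 and 0.42, and Fst (follistatin), the activin antagonist, at 0.39 and 0.3. Nog (noggin), a BMP antagonist, had 10 and 5 counts, which is 0.22 and 0.13 TPM. Grem1 (gremlin), another BMP antagonist, had 0 counts in both libraries, and a count of 0 allows up to 3 counts, or 0.0829 and 0.0923 CPM (counts scaled to library size). Chrdl1, Fst, Nog and Grem1 were thus each under 1 TPM in RNA of the whole heart, which does not show whether a small group of cells held more.

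Of 19 other extracellular antagonists, 10 were expressed. Dcn (decorin), a matrix proteoglycan that binds TGF-beta, was at 141.4 and 163.3 TPM, and Bgn (biglycan), its relative, at 126.6 and 155.7. Twsg1, a chordin partner, was at 35.92 and 38.2, and Crim1, which tethers BMPs at the cell surface, at 17.78 and 16.87. The 2 proteoglycans are typical of fibroblasts, and the fibroblast markers summed to 1264 and 1535 TPM, also higher in replicate 2. Their part in the proteoglycan values was not tested.

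Bambi, a receptor-like protein with no kinase, was at 2.91 and 3.04 TPM. The ID genes, which encode inhibitors of basic helix-loop-helix factors and are direct BMP targets, were led by Id3 at 42.64 and 45.57 TPM. Id1 was at 31.83 and 32.75, Id2 at 16.93 and 15.76 and Id4 at 1.66 and 1.65. All 4 were separate in that order, Id3 1.37-fold above Id1, Id1 1.98-fold above Id2, and Id3 26.6-fold above Id4. Of 14 other target genes, 11 were expressed, led by the matrix genes Postn (periostin) at 305.1 and 357.2 TPM and Fn1 (fibronectin) at 228.9 and 228.1. Ccn2 (connective tissue growth factor) was at 103.1 and 84.39.

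Over all roles, 28 of 31 neighbouring pairs in these orders were separate, meaning that both libraries of the higher gene lay above both of the lower. The orders are of gene TPM, which includes noncoding transcripts, and coding transcripts alone put Ltbp1 above Ltbp3. The second estimates of the same reads kept 25 of the 28 separate and reversed 0, and the other 3, Ltbp3 and Ltbp1, Smad5 and Smad1, and Chrdl1 and Fst, overlapped there. The second estimates were higher for 38 of the 39 expressed members, with a median ratio to the gene table of 1.26, against 1.3 over expressed protein-coding genes. The ratio ran from 0.776 for Bmp4 to 1.73 for Acvr2b. Across the 39 genes the levels ranked alike (Spearman rho 0.994, over genes of the same libraries, which are not independent). The plot of the estimates against each other shows Bmp4 as the member below the line of equality.

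**Figure D2:**
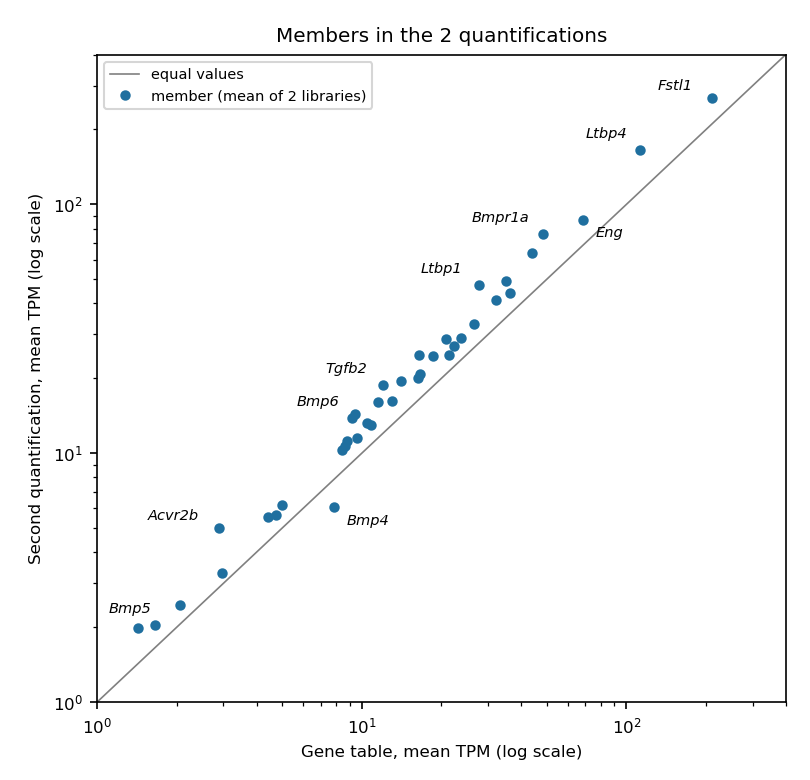
Mean TPM of the 39 expressed members in the gene table (horizontal) and in the second transcript estimates summed per gene (vertical), both on log axes, with the line of equal values. All members but Bmp4 lie above the line.

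The estimates also divided Bmp4 differently among its transcripts. In the first estimates the retained-intron transcript Bmp4-204, which codes for no protein, held 40.67% and 47.54% of the TPM of the gene, and in the second it held 0.0% in both. Only 2.97 and 3.91 TPM of the first estimate belonged to the main coding transcript. The second estimates gave 8.022% and 12.6% to another retained-intron transcript, which held 2.228% and 6.674% in the first. The gene TPM of Bmp4 therefore includes a noncoding part in both, larger in the first.

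Of the 44 members with counts, 36 had more than 1 annotated transcript. The leading transcript was the same in both libraries for 33 of them, and the same in both sets of estimates for 32. The 4 that differed between estimates were Bmp4, Ltbp1, Acvrl1 and Acvr1, and 2 of these kept the same coding sequence. For 17 members the leading transcript held at least 80% of the TPM of the gene in both libraries. For 7 members, Bmp4, Inhba, Acvr1, Bmpr1a, Tgfbr2, Smad2 and Chrdl1, the next transcript held at least 20% in both libraries of the first estimates. In Inhba, Acvr1 and Smad2 the leading and next transcripts code for the same protein. In Bmpr1a a transcript with 1500 coding bases, in place of the 1596 of the leading one, held 25.74% and 25.49% in the first estimates and 18.61% and 18.63% in the second. In the second, a fragment annotated with 326 coding bases stood above it at 27.46% and 21.25%.

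Coding forms that differ by a single exon or end were followed in 5 members, since they change the receptor, ligand or SMAD that is made. Tgfb2 and Eng were added outside the rule for naming isoforms, after their values had been seen. The bases that tell the forms apart are printed below in capitals, 5′ to 3′ on the strand of the gene, with flanking coding bases of the spliced transcript in lower case, from GENCODE M21 on GRCm38 (mm10). For Tgfbr2 the inserted exon of the longer transcript lies at chr9:116158271-116158345 on the minus strand, for Tgfb2 the corresponding one at chr1:186690721-186690804 on the minus strand, and for Eng the coding end of the short-tailed transcript at chr2:32681298-32681383 on the plus strand.
Tgfbr2 inserted exon: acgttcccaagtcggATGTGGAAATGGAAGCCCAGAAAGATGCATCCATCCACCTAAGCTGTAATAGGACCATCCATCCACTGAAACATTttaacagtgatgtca
Tgfb2 inserted exon: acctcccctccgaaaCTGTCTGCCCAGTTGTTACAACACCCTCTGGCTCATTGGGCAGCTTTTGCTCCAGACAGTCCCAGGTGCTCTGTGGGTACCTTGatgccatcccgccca
Eng coding end: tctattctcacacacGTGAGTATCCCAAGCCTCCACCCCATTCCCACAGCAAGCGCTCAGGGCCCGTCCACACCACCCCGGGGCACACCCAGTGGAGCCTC

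The inserted exon of Tgfbr2 is 75 bases long and adds 25 codons to the part of the receptor outside the cell, giving 592 codons in place of 567. The longer form held 29.84% and 27.79% of the coding TPM of Tgfbr2 in the first estimates and 26.24% and 23.82% in the second. The shorter form led in both libraries and both estimates, and the share of the longer one, 28.81% ± 1.452 in the first estimates, was lower in the second in both libraries. In Tgfb2 the exon of 84 bases adds 28 codons to the propeptide, giving 442 codons in place of 414. The longer form held 14.13% and 19.04% in the first estimates and 36.98% and 37.36% in the second, so the shorter one led throughout but the share was not settled between the estimates.

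In Eng the capitals begin at the 5′ splice site of an intron that the long form removes. The retained bases end the protein early, giving 641 codons in place of 653, a form known as short endoglin for its short tail inside the cell. This form held 6.882% and 11.03% in the first estimates and 31.74% and 35.42% in the second. Long endoglin led in both, and the share of the short form differed more between the estimates than between the hearts. For Smad2, whose full-length form carries a 90-base exon that keeps it from binding DNA directly, the form with the exon held 75.1% and 77.0% in the first estimates and 74.0% and 77.9% in the second. That balance changed by no more than a few points between libraries or estimates, as the plot of coding forms shows.

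**Figure D3:**
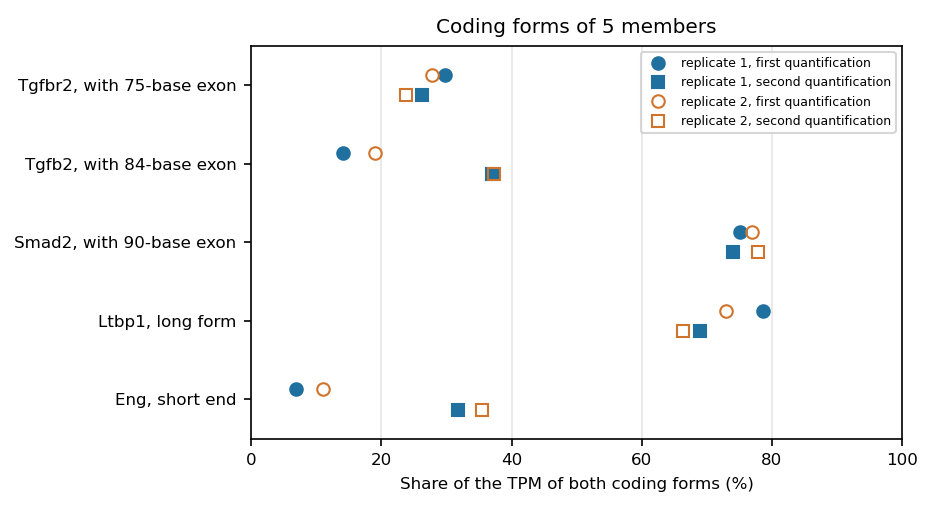
Share (%) of 1 coding form in the TPM of both forms for 5 members, in each library (blue filled, replicate 1, orange open, replicate 2) and in the first (circles) and second (squares) estimates. The Smad2 shares overlap between the estimates, the Tgfbr2 and Ltbp1 shares sit somewhat lower in the second, and the Tgfb2 and Eng shares sit higher there.

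Ltbp1 is made from separate start sites as a long form, with 1712 codons, and a short form, with 1341, which differ in how firmly they bind the matrix. The long form held 78.62% and 72.99% of their TPM in the first estimates and 68.88% and 66.32% in the second, so it led in every case. These shares leave out transcripts with no coding sequence, 1 of which held 27.13% and 29.78% of the whole TPM of Ltbp1 in the second estimates, against 4.102% and 3.415% in the first. The starts lie 173252 bases apart on the plus strand of chromosome 17. Since the shares from each start were estimated apart, the 250 bases before each RefSeq start are printed below from the RefSeq promoter table (GRCm38.p6), at chr17:75005279-75005528 for the long form and chr17:75178531-75178780 for the short, with each CG in capitals.
Ltbp1 long form promoter: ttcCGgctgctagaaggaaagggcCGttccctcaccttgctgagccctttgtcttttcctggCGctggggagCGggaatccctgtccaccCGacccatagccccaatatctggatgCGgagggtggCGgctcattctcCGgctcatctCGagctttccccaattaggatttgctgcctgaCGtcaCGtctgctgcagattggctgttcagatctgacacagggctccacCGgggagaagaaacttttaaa
Ltbp1 short form promoter: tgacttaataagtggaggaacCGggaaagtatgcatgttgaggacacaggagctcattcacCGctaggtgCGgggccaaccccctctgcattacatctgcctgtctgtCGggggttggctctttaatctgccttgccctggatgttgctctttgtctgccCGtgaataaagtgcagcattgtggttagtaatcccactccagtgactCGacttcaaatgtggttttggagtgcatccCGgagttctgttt
The motif searched was CG, which reads the same on both strands. The window of the long form holds 12 and that of the short form 7, at 56.8% and 50.8% G and C. Of 32851 promoter windows of this length, 33.5% hold at least as many as the former and 46.3% at least as many as the latter, with a median of 6. Both windows are thus within the common range, and the count of CG describes the letters only.

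Between the hearts the members differed little. Of 39 members tested, meaning a mean TPM of at least 1 and at least 20 counts in all, 0 differed by at least 2-fold with an exact 95% interval excluding equality, against 117 of 13598 genes (0.86%). At 1.5-fold 1 member, Bmp10, was called, against 311 genes (2.29%), so both counts are near the background. With spike-in scaling at 1.5-fold, Bmp10 and Ltbp2 were called, 2 members against 381 genes (2.8%). These calls compare 2 libraries and have no replicate check. The members divided into 21 with lower and 18 with higher scaled counts in replicate 2, and their median log2 ratio (replicate 2 over replicate 1, TMM scaling) was -0.03, against -0.003 over all genes tested. That split depends on the scaling, since spike-ins raise every ratio by 0.13 and so turn the sign of values between -0.13 and 0. The median size of the log2 ratio was 0.06, against 0.09. The interval excluded equality in 13 members (33.3%), against 23.7% of all genes tested.

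**Figure D4:**
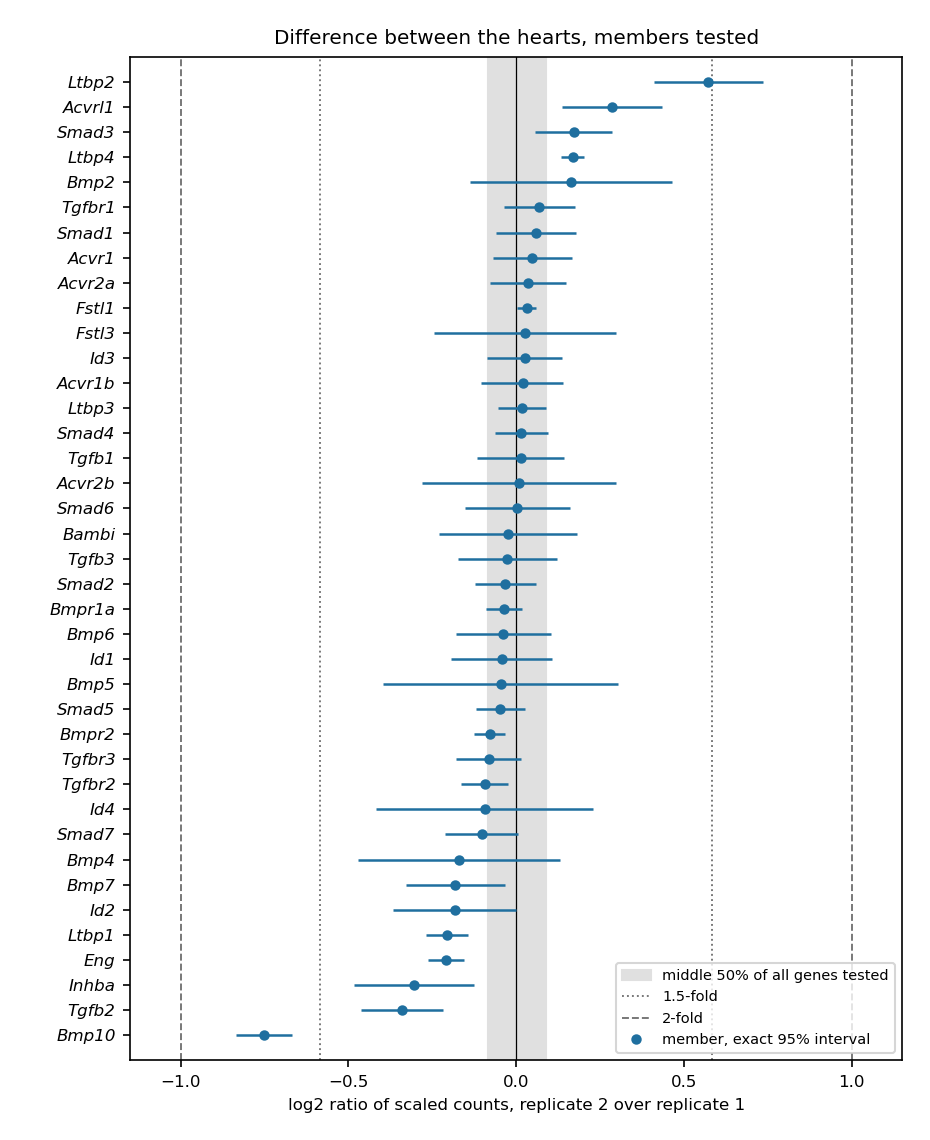
The log2 ratio of scaled counts, replicate 2 over replicate 1, for the 39 members tested, with exact 95% intervals that cover counting error only, the range between the quartiles of all genes tested in grey, and lines at 1.5-fold and 2-fold. Bmp10 alone lies past 1.5-fold, at -0.75, Ltbp2 lies at 0.57, and most of the others lie near 0.

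Bmp10 had the largest difference of the members tested. It had 3371 counts in replicate 1 and 1857 in replicate 2, a log2 ratio of -0.75 (95% interval -0.83 to -0.67), or 1.68-fold lower in replicate 2. The 8 atrial markers had values below 0 in all 8 cases, with a median of -0.31, and summed to 2108 and 1779 TPM, but none was called. Nr2f1 (-0.01), Nr2f2 (-0.04) and Dkk3 (-0.05), named after their values were seen, had intervals that included 0 and change sign with spike-in scaling. Of the others, Nppa, which encodes atrial natriuretic peptide, had a log2 ratio of -0.35 and Myl7, the atrial myosin light chain, -0.35. The 10 cardiomyocyte markers had a median of -0.07. The part of atrial tissue in the Bmp10 difference was not tested.

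Ltbp2 was the member with the largest difference the other way, with 533 and 735 counts, a log2 ratio of 0.57 (0.41 to 0.74) and a fold of 1.49. Ltbp4 was also higher in replicate 2, by 0.17 (0.13 to 0.20), and Ltbp1 lower, at -0.21 (-0.27 to -0.14). The fibroblast markers, all 8 of them higher in replicate 2, had a median of 0.16, less than the value of Ltbp2 and close to that of Ltbp4. Their part in the Ltbp values was not tested.

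Tgfb2 was lower in replicate 2 at -0.34 (-0.46 to -0.22) and Inhba at -0.30 (-0.48 to -0.13). Beside them stand the endocardial markers, which summed to 78.4 and 64.8 TPM, and the epicardial and mesothelial ones, at 96.13 and 75.26, with the medians given above. Eng was lower at -0.21 (-0.26 to -0.16), while Acvrl1, which shares ligands and endothelial expression with Eng, was higher at 0.29 (0.14 to 0.44). The endothelial markers, 7 of 8 lower in replicate 2, had a median of -0.05, between Eng and Acvrl1, a value whose sign turns with spike-in scaling. The part of these cell types in the values was not tested.

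The RNA of the SMADs and the ID genes moved little under TMM scaling, and RNA levels do not measure SMAD phosphorylation or signaling. Smad9, below 1 TPM, was not tested. Smad3 had a log2 ratio of 0.17 (0.06 to 0.29), and Smad1, Smad2, Smad4, Smad5, Smad6 and Smad7 had intervals that included 0. Spike-in scaling gave 0.19 for Smad1, 0.10 for Smad2, 0.305 for Smad3, 0.15 for Smad4, 0.09 for Smad5 and 0.03 for Smad7. Each of these lies outside its interval under TMM scaling. Smad4 was higher in TPM in replicate 2 but about equal in scaled counts (0.01), and its noncoding transcripts were not settled: Smad4-204 held 3.15% and 15.92% of the TPM of Smad4 in the first estimates but 12.68% and 0.0% in the second. Of the ID genes, Id1, Id3 and Id4 had intervals that included 0, and Id2 was at -0.18 (-0.37 to 0.00). Spike-in scaling gave 0.16 for Id3, also outside its interval under TMM scaling.

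Mstn, below the test's level, had a log2 ratio of -3.35 with a wide interval (-9.28 to -1.21), from 16 counts and 1. The skeletal muscle markers moved with it: all 6 that could be tested were lower in replicate 2 and all 6 were called, with a median of -3.27. Myh8, the perinatal skeletal myosin, was at 7.78 and 1.2 TPM. The part of skeletal muscle RNA in the Mstn counts was not tested.

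Of 64 other pathway genes tested, 0 were called at 2-fold, 41 were lower and 23 higher in replicate 2, and the median was -0.04, which spike-in scaling would also turn. With no TPM limit 2 were called, Acvr1c and Bmpr1b, both lower in replicate 2, against 357 of 16958 genes (2.11%). The target genes had the lowest median of the 6 lists, -0.14, with 8 of 11 lower. Among them Ccn2 was at -0.38, Fn1 at -0.17, Tsc22d1 at -0.13 and Postn at 0.14, so the targets did not move as a block and none passed 1.5-fold.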

How the data were processed

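Total RNA from 2 libraries of a single group was analysed. Per the file headers, the authors deposited for each library a gene table and a transcript table of expected counts, TPM and, for transcripts, the percent of the TPM of the gene (the first estimates), and a further transcript table of estimated counts and TPM (the second), on mm10 with annotation M21. The aligner, quantification programs and use of strand in counting were not given in the sources used here. Of the members, 23 overlap another annotated gene, 5 of these with a neighbour of at least 50 counts in both libraries, all on the opposite strand, and 1 of these neighbours is not reported here. Second estimates were summed per gene. Symbols, positions (1-based) and coding lengths, which leave out the stop codon, came from GENCODE M21.

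Members, lists and markers were chosen with earlier results of these data known. Members were all named. Of each list of other pathway genes up to 4 by mean TPM were named, of each marker list up to 3, and of isoforms those whose next transcript held 20% in both libraries or whose leading transcript differed between estimates. Acvr1c and Bmpr1b were named after their values were seen.

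Rounded expected counts were scaled with the TMM factors of edgeR 4.0.16 in R 4.3.3, and 0.5 was added before logs. Calls required 2-fold or more, a mean of 1 TPM or more, 20 counts or more over both libraries, and equality outside the 95% Clopper-Pearson interval, which is exact. Intervals and the limit of 3 counts cover counting error only. No p-value was computed. The rule was tested on simulated data. Alternatives were DESeq2 1.42.0 size factors, library totals, spike-ins, the second estimates, posterior means, other thresholds and each library alone. Python 3.11.15, numpy 2.4.6, pandas 2.3.3, scipy 1.17.1 and matplotlib 3.10.9 were used.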

Additional observations from a re-analysis of the deposited data

How the results depend on the processing

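The number of members expressed was 39 or 40 under the settings tried, except 31 with a limit of 5 TPM. Spike-in scaling raised every log2 ratio by 0.13, and the median of the members went from -0.03 to 0.11. Library totals raised every ratio by 0.04, which also turned the sign of that median (0.02), so the direction of the median is not settled. Members called went from 0 to 1 at 1.5-fold (Bmp10, -0.75), against 311 of 13598 genes (2.29%). With spike-ins at 1.5-fold 2 were called (Bmp10, -0.62, and Ltbp2, 0.71), against 381 genes (2.8%). The latter setting was added after the data were seen. With no TPM limit, 2 other pathway genes were called, Acvr1c (-1.24) and Bmpr1b (-1.56), against 357 of 16958 genes (2.11%). The cause was not tested. Over the alternatives Bmp10 ranged from -0.76 to -0.62 and Ltbp2 from 0.57 to 0.71. Spike-ins moved 23 of the 39 ratios of members outside their counting intervals. Levels are relative: the second estimates moved 41 of 45 by more than the SD between the hearts, and rescaling TPM over nuclear protein-coding genes moved 43, taking Tgfb1 from 18.54 to 40.65 and Smad9 from 0.77 to 1.689. With 2 libraries and no second condition, neither animal variation nor an effect can be estimated, and low members such as Nog and Mstn are limited by their counts.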
